A study of Homo sapiens with 6 samples.

Results

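The 10 genes described here are feedback regulators and outputs of ERK signalling: the phosphatase genes DUSP4, DUSP5 and DUSP6, the Sprouty genes SPRY2 and SPRY4, the SPRED genes SPRED1 and SPRED2, the ETS factor genes ETV4 and ETV5, and PHLDA1. They were chosen with earlier results of these data known, and all 10 were found by Ensembl ID among 60617 gene IDs and passed the filter on low values that kept 16555 genes for testing. RNA-seq values came from 6 libraries of human melanoma cells, 2 in each of 3 groups. The first group was the 1205LuTR parental line given DMSO and labelled drug sensitive. The others were the PBRT15 and PBRT16 lines, both given 500 nM PLX8394 and labelled resistant. 1205LuTR cells carry a GAL4-ELK1 reporter and derive from the human melanoma line 1205Lu. The drug inhibits BRAF and belongs to the class called paradox breakers, and PBRT stands for paradox breaker resistant tumor. Both PBRT lines were established from tumors grown in vivo, so each group is a single line. The labels give 1 medium for 1205Lu and both PBRT lines.

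No parental library with PLX8394 and no PBRT library without it was analysed here, so the parts of line and drug in a difference from parental cells cannot be told apart. PBRT16 and PBRT15 were both in the drug and can be compared at the same dose. Nothing in the labels says that the 2 libraries of a group were separate cultures. The p-values thus rest on the spread between the libraries of a line, and this spread may be technical. Summed values per library ran from 27878000 to 29580800, the deposited values are normalized and not whole counts, and the read depth behind them is unknown.

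ERK is the last kinase of the RAS, RAF, MEK and ERK cascade, which in melanoma is commonly driven by mutant BRAF. Active ERK turns on immediate early genes and also its own brakes: DUSP phosphatases take phosphate off ERK, while Sprouty and SPRED proteins act upstream, at the level of RAS and RAF. The ETS factors ETV4 and ETV5 carry the signal on to further genes. Levels of these transcripts are widely used as a readout of ERK output.

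All 10 genes fell in PBRT16 against parental cells at an adjusted p of at most 0.05 by limma, where 19% of all tested genes fell, and 7 of the 10 fell in PBRT15, where 19.5% of all tested genes did. Gene by gene, mean levels stood in the order parental, PBRT15, PBRT16 for 10 of 10 members, an order that 19.7% of all tested genes showed. For 7 members the libraries also stood in that order without overlap, against 7.85% of all genes. DUSP6, ETV5 and PHLDA1 did not pass the test in PBRT15 and fell in PBRT16, while SPRY4 fell 6.59-fold in PBRT15 and 431-fold in PBRT16. No member rose in any comparison, where 21.6% of all tested genes rose in PBRT15, 21.1% in PBRT16 and 7.5% in PBRT16 against PBRT15.

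**Figure D1:**
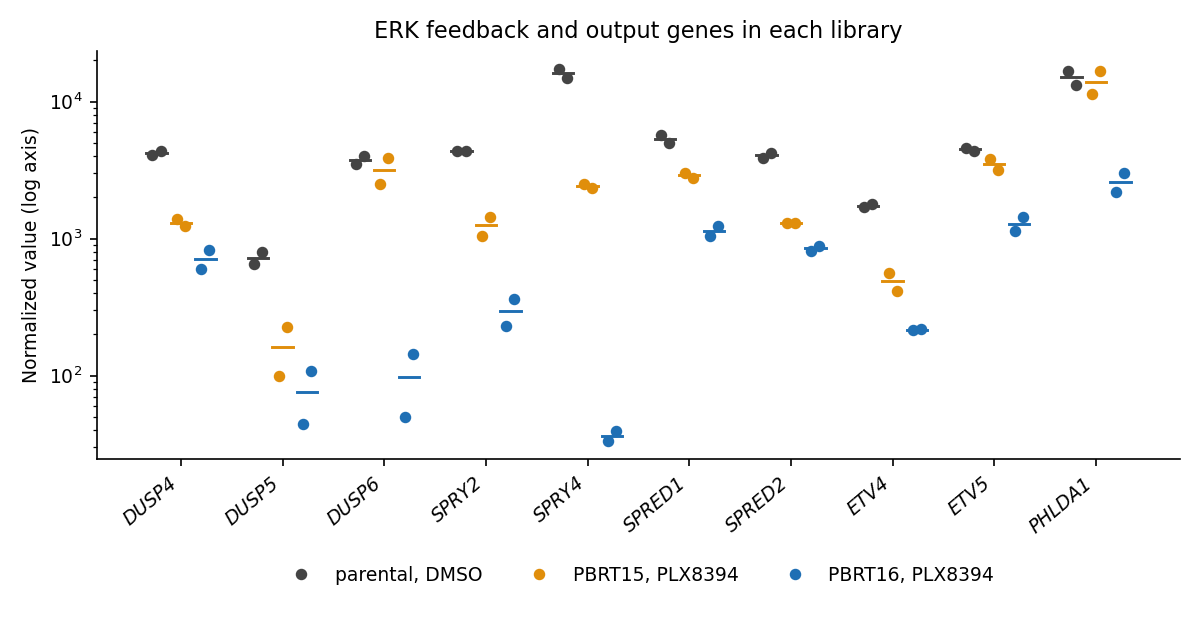
Normalized value of each of the 10 genes in each library, on a log axis; points are libraries, short bars the mean of the 2 libraries of a group. The PBRT16 points lie below both parental points for every gene, and the PBRT15 points of DUSP6 and PHLDA1 overlap the parental ones.

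Promoter sequence is shown for DUSP6 and PHLDA1, members that passed the test in PBRT16 and not in PBRT15. RefSeq starts (build GRCh38.p14, which shares its coordinates with the GRCh38 build of the files) were used for 6 members with 9 starts in all, namely DUSP6, SPRY2, SPRY4, SPRED1, SPRED2 and PHLDA1, and not for DUSP4, DUSP5, ETV4 and ETV5. The 250 bases upstream of the start are given 5′ to 3′ on the strand of the gene, the minus strand in both cases, at chr12:89352502-89352751 for DUSP6 and chr12:76031777-76032026 for PHLDA1. No bases are in capitals, because neither window held a match to the motifs searched. All 250 bases of the DUSP6 window lie in annotated exons of GENCODE v44, and none of the PHLDA1 window does. A long noncoding RNA on the opposite strand, ENSG00000274021, overlaps the DUSP6 gene.
DUSP6: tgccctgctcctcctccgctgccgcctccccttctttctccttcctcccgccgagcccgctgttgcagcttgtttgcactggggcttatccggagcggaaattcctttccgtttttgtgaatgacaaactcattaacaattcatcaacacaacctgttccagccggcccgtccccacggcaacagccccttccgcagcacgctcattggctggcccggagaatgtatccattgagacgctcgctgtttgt
PHLDA1: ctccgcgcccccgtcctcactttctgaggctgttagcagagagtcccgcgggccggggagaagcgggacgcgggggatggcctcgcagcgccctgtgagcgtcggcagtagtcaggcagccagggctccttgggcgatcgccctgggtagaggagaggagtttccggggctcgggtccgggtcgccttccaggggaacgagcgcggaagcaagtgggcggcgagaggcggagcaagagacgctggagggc

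Motifs of factors tied to the ERK pathway were searched on both strands in each 300-base window, from 250 bases before to 50 after the start. The ETS motif GGAAGT, the core bound by many ETS factors, was in 1 of 9 starts, against 22.8% of 35116 RefSeq promoters. It lay directly before a start of SPRY2 inside the gene, read on the opposite strand as the capitals in the last 30 bases before that start, at chr13:80340109-80340138 on the minus strand.
SPRY2: ggttgcccgcctcgggggcaggagACTTCC
The AP-1 motif TGANTCA, bound by FOS and JUN dimers, was in 1 of 9 starts, with 2 matches at a start of SPRED2 inside the gene, against 7.71% of promoters. TGAATGAA, bound by CIC, TGACGTCA, the cyclic AMP response element, and the CArG box bound by SRF were in 0 of 9 starts, against 1.66%, 1.85% and 1.29% of promoters. No match overlapped another. A match here describes letters and nothing about binding.

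The tests were made with limma on log2(value + 1) over all 16555 genes in all 6 libraries, with Benjamini-Hochberg adjustment. A gene is said to have risen or fallen at an adjusted p of at most 0.05. Fold changes are on the log2(value + 1) scale. Of the 10 members, 7 fell in PBRT15, 6 of them at least 2-fold, against 19.5% and 9.85% of all tested genes. In PBRT16 all 10 fell at least 2-fold, against 19% of all genes at the adjusted p alone and 9.95% with the fold. Between the lines, 9 members were lower in PBRT16 than in PBRT15, 7 of them at least 2-fold, against 8.28% and 4.77%. That count of 9 became 4 without PBRT15 replicate 1 and 4 without PBRT16 replicate 1, and among the 9 only SPRY4 and DUSP6 passed under all 18 other settings that gave an adjusted p. The median log2 fold change over the members was -1.66 in PBRT15, -2.79 in PBRT16 and -1.40 between the lines, where the medians over all genes were -0.01, -0.002 and 0.0002. The 2 comparisons with parental cells share their control libraries, so one is no independent repeat of the other.

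**Figure D2:**
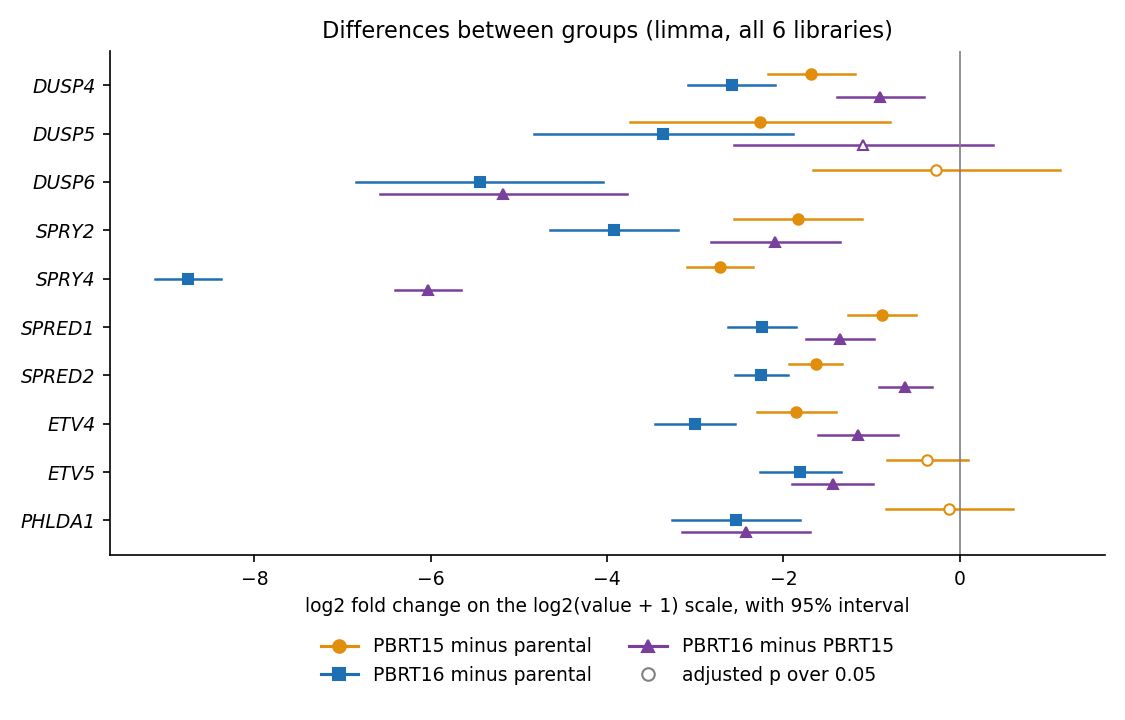
Log2 fold change of each gene with its 95% interval from limma for the 3 comparisons; filled symbols have an adjusted p of at most 0.05. All 10 PBRT16 symbols lie left of 0, and the intervals of DUSP6, ETV5 and PHLDA1 in PBRT15 span 0.

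The DUSP phosphatases act on ERK itself. DUSP6 encodes a cytoplasmic phosphatase specific for ERK (chr12:89347235-89352501, minus strand). Its normalized value was 3521 and 3998 in the parental libraries, 2494 and 3897 in PBRT15, with 49.8 and 145 in PBRT16. One PBRT15 library lay inside the parental range and one below it, while both PBRT16 libraries were far below all others. The log2 fold change in PBRT15 was -0.27 (SE 0.54, 95% interval -1.67 to 1.13, adjusted p = 0.718 by limma), an interval that holds falls and rises of over 2-fold. In PBRT16 DUSP6 fell by 5.45 on the log2 scale (SE 0.54, adjusted p = 0.00223), or 43.6-fold, and it was 36.2-fold lower than in PBRT15 (adjusted p = 0.00827). The opposite-strand RNA ENSG00000274021 was 110 and 130 in parental cells, 145 and 262 in PBRT15, then 3.60 and 11.2 in PBRT16. The library kit marks strand, but no source used here says whether the counting did, so reads of DUSP6 and of this RNA may not have been told apart.

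DUSP4 encodes a nuclear phosphatase of ERK and related kinases (chr8:29333064-29350684, minus strand). Its values were 4047 and 4370 in parental cells, 1380 and 1241 in PBRT15, with 596 and 822 in PBRT16. The 3 groups did not overlap. DUSP4 fell by 1.68 on the log2 scale in PBRT15 (SE 0.19, adjusted p = 0.00321) and fell by 2.59 in PBRT16 (SE 0.19, adjusted p = 0.000990). It was also 1.87-fold lower in PBRT16 than in PBRT15 (adjusted p = 0.0412), a call that was lost in 10 of 18 other settings.

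DUSP5, a nuclear phosphatase that binds ERK, was the member with the lowest level per kilobase in parental cells and PBRT15 (chr10:110497907-110511533, plus strand). Its values were 657 and 797 in parental cells, 99.4 and 226 in PBRT15, with 44.6 and 108 in PBRT16. Both resistant lines lay below parental cells, and the lines overlapped each other. DUSP5 fell by 2.26 on the log2 scale in PBRT15 (SE 0.57, adjusted p = 0.0320) and fell by 3.36 in PBRT16 (SE 0.57, adjusted p = 0.0103). The difference between the lines, -1.10 on the log2 scale (95% interval -2.57 to 0.37), did not pass. The call in PBRT15 was lost without parental replicate 1 (adjusted p = 0.0994), parental replicate 2 (0.120) or PBRT15 replicate 1 (0.106), and that in PBRT16 without parental replicate 2 (0.0525).

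Sprouty proteins are inhibitors that are induced by growth factor signalling and restrain it between the receptor and RAF. SPRY4 (chr5:142310427-142326455, minus strand) had the strongest change of all members. It was 17224 and 14983 in parental cells, 2525 and 2349 in PBRT15, with 33.5 and 39.2 in PBRT16. The groups were far apart and the libraries of each close together. SPRY4 fell by 2.72 on the log2 scale in PBRT15 (SE 0.14, adjusted p = 0.000415) and fell by 8.75 in PBRT16 (SE 0.14, adjusted p = 4.56e-05), which is 431-fold. PBRT16 was 65.4-fold below PBRT15 (adjusted p = 0.000181). Ranked by log2 fold change from the lowest, SPRY4 stood 26th of 16555 genes in PBRT16 against parental cells and 42nd between the lines, and it passed under all 18 other settings in all 3 comparisons. The antisense transcript SPRY4-AS1 was 27.8 and 16.7 in parental cells, 8.67 and 4.27 in PBRT15, with 0.907 and 1.94 in PBRT16, under the same limit on strand as for DUSP6.

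SPRY2, a widely expressed Sprouty gene (chr13:80335976-80341126, minus strand), was 4383 and 4374 in parental cells, 1045 and 1449 in PBRT15, with 229 and 364 in PBRT16. The 3 groups did not overlap. SPRY2 fell by 1.83 on the log2 scale in PBRT15 (SE 0.28, adjusted p = 0.00778) and fell by 3.92 in PBRT16 (SE 0.28, adjusted p = 0.000921), and PBRT16 lay 4.26-fold below PBRT15 (adjusted p = 0.0150).

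SPRED proteins bind neurofibromin, the RAS inactivator encoded by NF1, and bring it to the membrane. SPRED1 (chr15:38252836-38357249, plus strand) was 5738 and 4983 in parental cells, 3021 and 2775 in PBRT15, with 1044 and 1229 in PBRT16. The libraries of each group sat close together, and the groups did not overlap. SPRED1 fell 1.85-fold in PBRT15 (log2 fold change -0.88, SE 0.15, adjusted p = 0.0102), the only one of the 7 falls in that line under 2-fold, and the call was lost without parental replicate 1 (adjusted p = 0.0537). In PBRT16 it fell by 2.24 on the log2 scale (SE 0.15, adjusted p = 0.000743).

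SPRED2 (chr2:65310851-65432637, minus strand) was 3880 and 4212 in parental cells, 1305 and 1299 in PBRT15, with 816 and 885 in PBRT16. It fell by 1.63 on the log2 scale in PBRT15 (SE 0.12, adjusted p = 0.000910) and fell by 2.25 in PBRT16 (SE 0.12, adjusted p = 0.000402). Its difference between the lines was the smallest of the 9 that passed, -0.61 on the log2 scale (adjusted p = 0.0327), and was lost in 10 of 18 other settings. SPRED1 differed more between the lines, by -1.35 on the log2 scale (adjusted p = 0.00918).

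ETV4 and ETV5 encode PEA3 factors, ETS transcription factors whose genes are induced by ERK. ETV4 (chr17:43527844-43579620, minus strand) was 1709 and 1778 in parental cells, 561 and 415 in PBRT15, with 215 and 217 in PBRT16. The groups did not overlap. ETV4 fell by 1.85 on the log2 scale in PBRT15 (SE 0.17, adjusted p = 0.00190) and fell by 3.00 in PBRT16 (SE 0.17, adjusted p = 0.000520), and was 2.22-fold lower in PBRT16 than in PBRT15 (adjusted p = 0.0195). DHX8, which lies opposite ETV4, was 1822 and 1803 in parental cells, 1680 and 1339 in PBRT15, then 1518 and 1262 in PBRT16.

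ETV5 (chr3:186046314-186110318, minus strand) was 4606 and 4342 in parental cells, 3809 and 3164 in PBRT15, with 1131 and 1443 in PBRT16. Both PBRT15 libraries were below both parental ones, but by little, and the log2 fold change of -0.37 did not pass (SE 0.18, 95% interval -0.82 to 0.09, adjusted p = 0.163). In PBRT16 ETV5 fell by 1.81 on the log2 scale (SE 0.18, adjusted p = 0.00216), the smallest fall of a member in that line, and it was 2.72-fold lower than in PBRT15 (adjusted p = 0.0122).

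PHLDA1 encodes a pleckstrin homology-like protein whose transcript rises with ERK activity (chr12:76025447-76031776, minus strand). It was 16882 and 13142 in parental cells, 11368 and 16638 in PBRT15, with 2178 and 3024 in PBRT16. One PBRT15 library lay inside the parental range and one below it, and both PBRT16 libraries lay below it. The log2 fold change was -0.12 in PBRT15 (SE 0.28, 95% interval -0.84 to 0.61, adjusted p = 0.764). In PBRT16 PHLDA1 fell by 2.54 on the log2 scale (SE 0.28, adjusted p = 0.00298), and it was 5.36-fold lower than in PBRT15 (adjusted p = 0.0103).

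The remaining parental signal differed widely between members. As a percentage of the parental mean, PBRT16 kept 0.226% of SPRY4, 2.59% of DUSP6 and 6.76% of SPRY2, against 28.8% of ETV5, the highest. In PBRT15 the range ran from 15.1% of SPRY4 to 93.3% of PHLDA1. Libraries of a group agreed within 1.29-fold for every member in parental cells, whereas DUSP5 differed 2.27-fold between the PBRT15 libraries and DUSP6 2.91-fold between the PBRT16 libraries. All 10 members were lower in PBRT16 replicate 1 than in replicate 2, against 50.9% of all tested genes, while the members were split 5 and 5 in parental cells and 4 and 6 in PBRT15. In PBRT15, 8 members lay below the parental range without overlap against 37.9% of all genes, and in PBRT16 all 10 did against 38.4%. Between the lines, PBRT16 lay below PBRT15 without overlap for 9 members against 31.8%.

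Per kilobase of the longest annotated transcript, the order of the members changed between groups. In parental cells SPRY4 (3010 per kilobase) and PHLDA1 (2539) were highest, and their libraries overlapped, with DUSP5 lowest at 294, a 10.3-fold range. In PBRT15 PHLDA1 led at 2368, without overlap with DUSP6 (881) and ETV5 (854), which overlapped each other, and DUSP5 was lowest at 65.6. In PBRT16 PHLDA1 again led at 440, followed by ETV5 at 315, while DUSP6 (26.8) and DUSP5 (30.9) overlapped and SPRY4 was lowest at 6.80. The range from highest to lowest was 36.1-fold in PBRT15 and 64.7-fold in PBRT16.

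The genes nearest to some members in their values were sought, and no background distance was computed. For 3 members, the 3 genes with the smallest root mean square distance in log2 value, after centring on the parental mean, over the 6 libraries were taken from 11721 genes with a mean of at least 100. For DUSP6 these were A2M (distance 0.395), CD200 (0.418) and EDA2R (0.520). For SPRY4, PRRX1 was closest at 0.302. PRRX1 was 4962 and 3215 in parental cells, 760 and 804 in PBRT15, with 10.2 and 9.88 in PBRT16. The next, MFAP2, was at 1.00, and its PBRT16 values of 0.865 and 0.818 were near the floor. For PHLDA1, SNED1 (0.301), CNTNAP3B (0.303) and HAS2 (0.307) were about equally close. Around each member, 20 tested genes with a mean of at least 100 were taken, the next 10 on either side by start position. Their median log2 fold change in PBRT16 was -0.54 around DUSP6 and -0.27 around PHLDA1. It lay between -0.37 and 0.37 around the other members. In PBRT15 these medians ran from -0.51 around ETV5, whose own value was -0.37, to 0.13 around PHLDA1, whose own value was -0.12.

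The relatives of the members did not move as one group. Of 14 relatives tested, 3 rose and 0 fell in PBRT15, while PBRT16 had 3 rises and 4 falls, with medians of -0.34 and -0.31. For comparison with these counts, the shares of all tested genes called higher were 21.6% (PBRT15) and 21.1% (PBRT16), and those called lower 19.5% and 19%. DUSP1, a nuclear phosphatase induced by stress and growth signals, rose in both lines, from 251 and 294 in parental cells to 1249 and 3634 in PBRT15 (log2 fold change 2.97, adjusted p = 0.0129) and 2711 and 4110 in PBRT16 (3.62, adjusted p = 0.00729). SPRY1, another Sprouty gene, rose in PBRT15 from 80.7 and 126 to 572 and 729 (2.67, adjusted p = 0.00888), and its value of 140 and 298 in PBRT16 did not pass (1.01, adjusted p = 0.122). ETV1, the third PEA3 factor, was 1895 and 1797 in parental cells, 1475 and 1651 in PBRT15, with 100 and 207 in PBRT16. It fell by 3.67 on the log2 scale in PBRT16 (adjusted p = 0.00206), and its difference between the lines was -3.43 (adjusted p = 0.00813). SPRED3 followed the same order, with 543 and 317, then 367 and 311, then 50.2 and 103, and fell only in PBRT16 among these tests (-2.51, adjusted p = 0.0108). DUSP8, a phosphatase of JNK and p38, was higher in PBRT16 than in PBRT15 by 2.11 on the log2 scale (adjusted p = 0.0193).

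Of 20 other genes commonly induced through ERK that were tested, PBRT15 had 3 rises and 7 falls and PBRT16 had 1 rise and 11 falls. Again 21.6% and 21.1% of all tested genes were called higher and 19.5% and 19% lower. EREG was listed at 0 in every library, and AREG at under 1 in each, so neither was tested. Of the tested genes, EGR1, FOS, IER2, MYC, MAFF and EPHA2 passed in neither line against parental cells. SH2B3, an adaptor that restrains cytokine receptors, was 24803 and 22177 in parental cells and fell to 6520 and 4736 in PBRT15 (-2.08, adjusted p = 0.00171) and to 1816 and 1746 in PBRT16 (-3.72, adjusted p = 0.000368). LIF, an interleukin 6 family cytokine, fell in both lines, with log2 fold changes of -2.89 and -3.40 (adjusted p = 0.00810 and 0.00509). The early growth response genes EGR2 (-4.93 and -3.64, adjusted p = 0.00966 and 0.0234) and EGR3 (-6.02 and -7.92, adjusted p = 0.0388 and 0.0181) fell in both lines too, while JUNB, an AP-1 subunit, rose from 90.9 and 99.7 to 565 and 1794 in PBRT15 and 361 and 615 in PBRT16 (adjusted p = 0.0115 and 0.0356). FOSL1 did not pass in PBRT15 (-0.21, adjusted p = 0.387 by limma) and fell in PBRT16 (-0.69, adjusted p = 0.0340). That call was lost when some single libraries were left out. CCND1, the cyclin that drives entry into the cell cycle, was chosen for mention after its values were seen. It was 6269 and 6812 in parental cells, 10329 and 8511 in PBRT15, then 2122 and 2172 in PBRT16, so that it rose in PBRT15 (0.52, adjusted p = 0.0409) and fell in PBRT16 (-1.61, adjusted p = 0.00166). The rise in PBRT15 was lost when any 1 of 5 of the 6 libraries was left out (adjusted p = 0.0747 to 0.155).

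**Figure D3:**
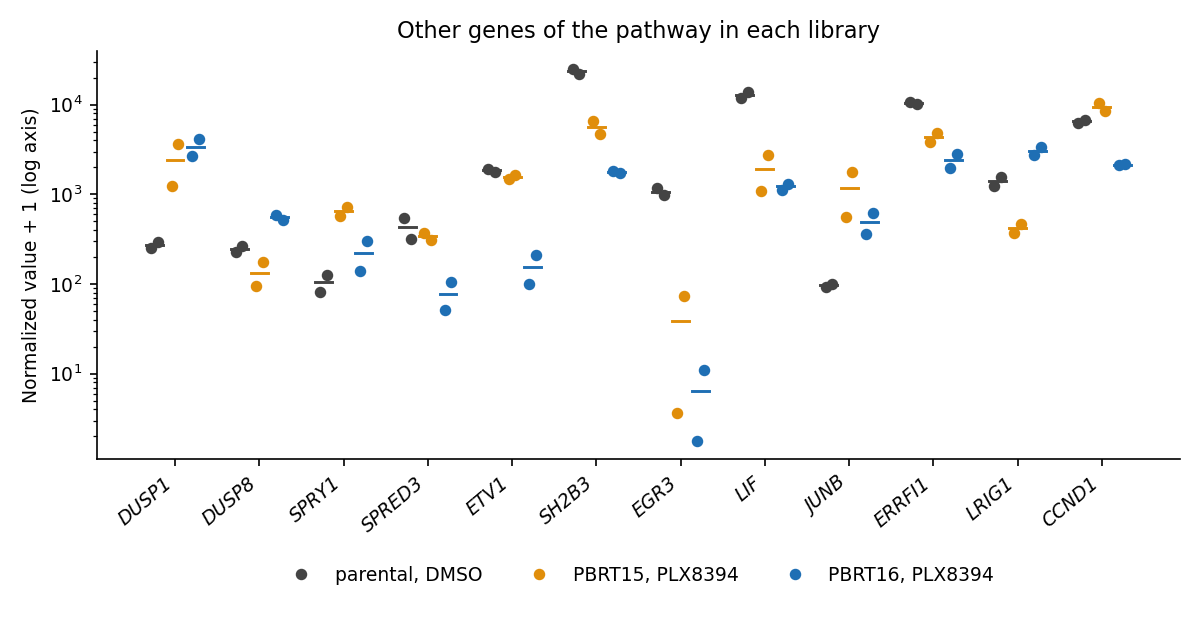
Normalized value plus 1, on a log axis, of 12 other genes of the pathway in each library; points are libraries and bars the mean of the group. ETV1 and CCND1 were lowest in PBRT16, DUSP1 and JUNB were higher in both resistant lines, and LRIG1 moved in opposite directions in them.

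Genes of the cascade itself were tested too. ARAF and MAPK3, which encodes ERK1, each rose by 0.61 on the log2 scale in PBRT16 (adjusted p = 0.0309 and 0.0495), and neither passed in PBRT15. Both calls were lost without any 1 of the 6 libraries, with an adjusted p of 0.0511 to 0.124 for ARAF and 0.0537 to 0.188 for MAPK3. BRAF, the target of PLX8394, was 1848 and 1613 in parental cells, 1498 and 1790 in PBRT15, then 1959 and 1878 in PBRT16, and neither it nor MAP2K2 passed in any comparison. MAP2K1 was higher in PBRT16 than in PBRT15 by 0.57 (adjusted p = 0.0448), a call also lost without any 1 of the 6 libraries (0.0821 to 0.179). Of 6 RAS genes, PBRT15 had 2 rises and 1 fall, and PBRT16 had 3 rises and 0 falls. Beside this and the count of adaptors below, 21.6% of all tested genes rose and 19.5% fell in PBRT15. In PBRT16 21.1% rose and 19% fell. MRAS and RRAS rose in both, MRAS by 1.89 and 1.66 and RRAS by 1.91 and 1.65 on the log2 scale, while NRAS had -0.49 in PBRT15 (adjusted p = 0.0289), a call lost without any 1 of the 6 libraries (0.0541 to 0.119). Upstream of RAS, the exchange factor gene RASGRP3 went from 0.337 and 6.54 in parental cells to 272 and 148 in PBRT15 and 395 and 296 in PBRT16 (adjusted p = 0.00642 and 0.00456), and 9 adaptors and exchange factors held 3 rises and 2 falls in PBRT15, with 2 of each in PBRT16.

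Among other genes that restrain RAS or its receptors, of 8 tested PBRT15 had 0 rises and 4 falls, and PBRT16 1 rise and 3 falls. For this and the counts below, the shares of all tested genes that rose and fell were 21.6% and 19.5% in PBRT15. In PBRT16 they were 21.1% and 19%. ERRFI1, an inhibitor of the epidermal growth factor receptor, fell from 10784 and 10249 to 3819 and 4887 in PBRT15 (-1.28, adjusted p = 0.0114) and 1978 and 2809 in PBRT16 (-2.16, adjusted p = 0.00256). LRIG1, which promotes the breakdown of receptors of that family, was 1226 and 1572 in parental cells, fell to 370 and 461 in PBRT15 (-1.75, adjusted p = 0.00354) and rose to 2765 and 3358 in PBRT16 (1.13, adjusted p = 0.0126). RASA2, a RAS inactivator, fell in both lines, with log2 fold changes of -1.34 and -1.44 (adjusted p = 0.00318 and 0.00259), and NF1 did not pass in either. Of 8 scaffolds, 1 rose and 2 fell in each line. KSR2, a scaffold of RAF and MEK, was 105 and 83.9 in parental cells, 1.01 and 0.955 in PBRT15, then 15.6 and 16.1 in PBRT16. Its adjusted p by limma was 7.95e-05 and 0.000543 against parental cells. The PBRT15 values match the commonest value below 1.5 in their libraries (1.013 and 0.955). They lie near the floor, so their small spread and the fold changes that use them are uncertain. Of 14 kinases and nuclear factors downstream of ERK, PBRT15 had 3 rises and 6 falls and PBRT16 5 of each, with RPS6KA1, encoding the kinase RSK1, at log2 fold changes of -3.13 and -3.03 (adjusted p = 0.000735 and 0.000792).

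**Figure D4:**
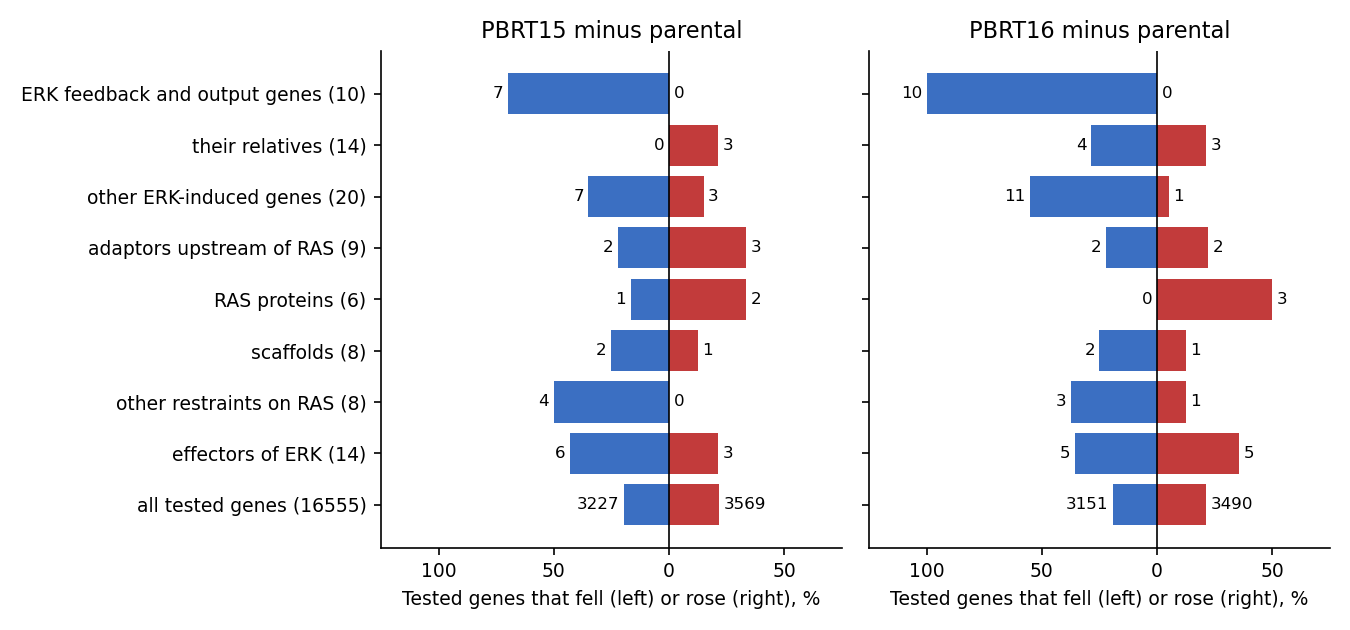
Share of the tested genes of 8 pathway lists and of all tested genes that fell (left, blue) or rose (right, red) at an adjusted p of at most 0.05 in each resistant line against parental cells, in percent; printed numbers are genes, and the number tested is in parentheses. The 10 feedback and output genes have 7 and 10 falls and no rise. The 8 lists drawn include these genes and leave out the RAF, MEK and ERK kinases.

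Over the 8 lists other than the members, which include the kinases, PBRT15 had 15 rises and 22 falls among 86 tested genes. PBRT16 had 18 and 27. Of all genes, 41.1% and 40.1% were called in either direction. The lists' medians were -0.21 and -0.08. Between the lines 10 rose and 9 fell, against 15.8%. Without 1 library, some other calls of these genes were lost. In PBRT15 this held for DUSP1 (adjusted p = 0.0660 without parental replicate 1 and 0.0532 without parental replicate 2), JUNB, EGR3 and ERRFI1 (highest adjusted p 0.0592, 0.134 and 0.0593). In PBRT16 it held for LRIG1 (0.0591 without parental replicate 1 and 0.0626 without PBRT16 replicate 2), SPRED3 (0.0513 without parental replicate 1), EGR2, EGR3 and JUNB (highest 0.0916, 0.0804 and 0.141), and between the lines for DUSP8 (0.0893), NRAS (0.117), SH2B3 (0.0560) and SPRED3 (0.133).

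Markers of the labelled cell type and of others moved with the groups, and their part in these results was not tested. Of 8 melanocyte markers, TYR was at 0 in all libraries, and the summed value of all 8 was 15491 and 12314 in parental cells, 847 and 953 in PBRT15, with 2242 and 2214 in PBRT16. SOX10 fell from 4360 and 4103 in parental cells to less than 2 in every resistant library, as did S100B from 10992 and 8075, and MITF rose in both lines. The 9 fibroblast markers summed to 6955 and 6046 in parental cells, 136378 and 146756 in PBRT15, with 18813 and 25123 in PBRT16, and LUM stood at 4.13 or less in every library. The parental sum was mostly PDGFRA (6708 and 5673). COL1A1, COL1A2, THY1 and PDGFRA made up most of the PBRT15 sum, and COL1A1 and PDGFRB most of the PBRT16 sum. Of 8 that were tested, 7 rose in PBRT15, where 21.6% of all tested genes rose. In PBRT16 3 rose (DCN, PDGFRB and COL1A1) and 2 fell (PDGFRA and FAP), against 21.1% and 19% of all tested genes. COL1A2, COL3A1 and THY1 did not pass in PBRT16. Of 5 endothelial markers, EMCN was at 0 throughout and the sum at most 29.8. CD3E was at 0 among 5 immune markers, whose sum of 819 to 3123 was nearly all CD68. The 5 keratinocyte markers summed to between 292 and 368, mostly KRT10. In bulk RNA, fewer cells of a type and less RNA per cell cannot be told apart.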

How the data were processed

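RNA was sequenced from 6 libraries. By the paper's methods, the authors prepared stranded mRNA libraries for paired-end sequencing, and used RSEM with a GENCODE annotation of GRCh38 for quantification and DESeq2 for comparisons. STAR 2.6.1a and Picard stand in the submitters' processing notes. Each deposited file holds 1 normalized signal value per gene, on a common scale (summed values 27878000 to 29580800). No source used here names the normalization, whole reads could not be recovered and the depth is unknown, so limma was used and no count test.

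IDs were matched to GENCODE v44 without version (60357 of 60617). The 45 pseudoautosomal copies were left out. A gene was tested if, after scaling to the library total, it reached 10 in 2 libraries, and if it summed to 15 or more. The model for 3 groups, with no block, was fitted to log2(value + 1) by limma 3.58.1 in R 4.3.3 and had 3 residual and 1.89 prior degrees of freedom. A fold threshold of 2 is given beside. The members and lists were chosen with earlier results of these data known. Other genes were named if they passed with a 2-fold change in both lines, were among the 2 largest rises or falls of their list, or encode a core protein of the cascade; CCND1 was added after its values were seen. No source used here pairs libraries by replicate number. The deviations of same-numbered libraries had r of 0.014 between parental cells and PBRT15 and 0.025 between parental cells and PBRT16. Between PBRT15 and PBRT16 r was 0.16. In 5 simulations of PBRT15 against parental cells over 16555 genes, limma recovered 0.299% of 1.5-fold, 6.87% of 2-fold and 78.2% of 4-fold changes, with 3.87% false calls. Only a small share of the genes was changed in each simulation, whereas 41.1% of all tested genes were called in the data. The adjustment was thus stricter in the simulations, and these shares do not describe recovery in the data. Alternatives were other scalings, pseudocounts, filters and fits, a block for the replicate number and the removal of single libraries. Some genes of the lists are not reported here.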

Additional observations from a re-analysis of the deposited data

Results flagged for a closer look

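The resistant lines were compared with the same parental libraries, so the difference of their changes equals PBRT16 minus PBRT15, tested by limma with an adjusted p of at most 0.05. It passed for 9 of the 10 feedback and output genes, all lower in PBRT16, where 8.28% of all tested genes were called lower and 15.8% in either direction. The count was 4 without PBRT15 replicate 1 and 4 without PBRT16 replicate 1. On the log2 scale the differences were -6.03 for SPRY4, -5.18 for DUSP6, -2.42 for PHLDA1, -2.09 for SPRY2, -1.44 for ETV5, -1.35 for SPRED1, -1.15 for ETV4, -0.90 for DUSP4 and -0.61 for SPRED2. Only SPRY4 and DUSP6 among them passed under all 18 other settings that gave an adjusted p. Among the other genes named, ETV1 (-3.43), SPRED3 (-2.21), CCND1 (-2.13) and SH2B3 (-1.64) were lower in PBRT16. LRIG1 (2.88), DUSP8 (2.11), NRAS (0.68) and MAP2K1 (0.57) were higher in PBRT16, as was KSR2 (3.08), whose PBRT15 values were near the floor. No group had the 4 libraries needed for a check of single outlying libraries.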

How the results depend on the processing

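Every one of the 19 other settings left 5 to 7 of the 10 members fallen in PBRT15 and 9 or 10 in PBRT16. Between the lines the count of 9 was 5 in a test against a fold of 1.5, and leaving out 1 library gave 4 to 7 (4 without PBRT15 replicate 1 or PBRT16 replicate 1; lowest and highest over the 6 such fits 5 and 7 in PBRT15, 9 and 10 in PBRT16). The pathway lists' 37, 45 and 19 calls became 17, 26 and 7 against a fold of 1.5; between the lines they were 9 without the filter and 10 with only the 2 groups compared. Leaving out 1 library gave 23 to 32, 26 to 43 and 6 to 14. Over all genes, calls of 6796, 6641 and 2612 were 3909, 3824 and 1533 with a fold of at least 2, and 2861, 2829 and 675 against a fold of 1.5. Between the lines they were 1390 without the filter and 1344 with 2 groups. Leaving out 1 library gave 3847 to 5843, 3748 to 6222 and 780 to 1710. The cause was not tested.

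No source used here pairs libraries by replicate number, and whether the number stands for a shared batch is unknown. DUSP5, DUSP6, SPRY2 and PHLDA1 were lower in replicate 1 than in replicate 2 in both resistant lines, the other members only in PBRT16. A replicate block gave 7, 10 and 7 members, 34, 42 and 15 list genes and 6203, 6235 and 1846 genes. Under the block the differences between the lines of DUSP4 and SPRED2 had adjusted p-values of 0.0668 and 0.0547 by limma, and no other call of a member changed. Calls of the other named genes were lost 65, 70 and 33 times and gained 5, 3 and 0 times over all settings in the 3 comparisons. Signs turned for values that had not passed. In PBRT15 against parental cells, leaving out 1 library gave -0.59 to 0.055 for DUSP6, -0.39 to 0.16 for PHLDA1 (0.066 without parental replicate 1), -0.21 to 0.052 for BRAF (0.022 without parental replicate 1) and -0.68 to 0.091 for SPRED3, and upper-quartile scaling gave -0.0071 for NF1. In PBRT16 leaving out 1 library gave -0.39 to 0.64 for SERTAD1. Depth is unknown. Few 2-fold changes were recovered in the simulations, but far fewer genes were changed there than were called in the data. The recovered shares therefore do not carry over to these comparisons.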
